A study of Homo sapiens with 6 samples.

Results

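The end of the short arm of chromosome 9, from its first base to 9 Mb (hg38), carries JAK2, CD274 and PDCD1LG2, and V5-GSE1 peaks starting in it were examined. The stretch was selected on the number of peaks that both lists hold there. It contained 1235 of the 21401 peaks found in DMSO (5.77%) and 994 of the 13233 peaks found after MC2580 (7.51%). These counts chose the segment, so its density of peaks is given as a description and was not tested.

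Binding was mapped by ChIP-seq against the V5 tag in NB4, a human acute promyelocytic leukemia cell line. Cells were transduced with lentiviral pLEX_307-GSE1, which expresses V5-tagged GSE1 (transcript variant 2) from an added copy, or with the empty pLEX_307 vector (EV). GSE1 cells received DMSO or the LSD1 inhibitor MC2580 (2 µM) for 24 h, whereas no treatment is given for EV cells. The 6 libraries (3 V5 ChIPs and 3 inputs, which are chromatin without immunoprecipitation) comprised 1 per group, and the 2 peak lists analysed are those of the DMSO and the MC2580 ChIP. Every difference below is therefore a difference between 2 libraries that share the EV ChIP as a control, without a replicate check. The read depth was unknown. Intervals are 95% intervals that cover counting error only.

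GSE1 is a chromatin protein that associates with LSD1, a histone H3 demethylase that acts in repressor complexes of myeloid cells. JAK2 is the tyrosine kinase that passes signals from cytokine and interferon receptors to STAT transcription factors. CD274 (PD-L1) and PDCD1LG2 (PD-L2) are ligands of the inhibitory T cell receptor PD-1, and both are induced by interferon through JAK and STAT proteins.

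Reference sequences are printed for the loci on which the description turns. Each is 200 bases of the plus strand of hg38, in lower case. Capitals mark matches, on either strand, to consensus words of 6 factors or factor families of blood cells. PU.1, which directs myeloid development, was searched as GAGGAAGT, the RUNX family as TGTGGTTT and the CEBP family as TTGCNNAA. The word for AP-1, the dimer of FOS and JUN proteins, was TGACTCA. For GATA factors, which act in erythroid and progenitor cells, AGATAAG was used. GFI1, a repressor that recruits LSD1, was searched by the core of its motif, AATCAC. None of the words contains another. A match is a description of letters, not a binding site. The first set holds the 200 bases upstream of the outermost annotated start of JAK2, CD274 and PDCD1LG2, each of which lay wholly under a DMSO peak and under no MC2580 peak. The center of the CD274 start peak is added because it holds the PU.1 word.
JAK2 upstream (chr9:4984190-4984389): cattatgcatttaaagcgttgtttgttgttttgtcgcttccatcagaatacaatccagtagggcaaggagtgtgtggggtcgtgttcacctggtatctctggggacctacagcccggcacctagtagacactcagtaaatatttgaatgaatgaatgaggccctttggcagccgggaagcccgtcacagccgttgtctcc
CD274 upstream (chr9:5450303-5450502): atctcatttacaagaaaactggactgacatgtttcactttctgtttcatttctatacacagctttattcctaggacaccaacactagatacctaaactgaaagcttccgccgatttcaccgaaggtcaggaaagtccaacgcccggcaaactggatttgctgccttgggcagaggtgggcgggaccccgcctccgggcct
CD274 start peak center, DMSO (chr9:5449875-5450074): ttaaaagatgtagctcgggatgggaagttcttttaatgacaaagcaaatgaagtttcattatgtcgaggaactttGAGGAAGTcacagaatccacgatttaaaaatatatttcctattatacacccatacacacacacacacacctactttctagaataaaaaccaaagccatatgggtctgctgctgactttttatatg
PDCD1LG2 upstream (chr9:5510331-5510530): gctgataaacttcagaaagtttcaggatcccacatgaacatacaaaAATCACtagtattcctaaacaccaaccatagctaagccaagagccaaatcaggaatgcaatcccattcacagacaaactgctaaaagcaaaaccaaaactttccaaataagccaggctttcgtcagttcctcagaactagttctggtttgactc

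The second set holds centers chosen from peaks of high score, and leaves out some of the highest. The SMARCA2 and DOCK8 centers come from the 2 highest DMSO peaks of the segment, and the next 2 from distal peaks of high score, one between RCL1 and JAK2 and one beyond the end of GLIS3. The last 3 centers come from peaks of high score found in 1 list only, at AK3 (DMSO), inside PDCD1LG2 (MC2580) and in the gene-poor stretch beyond DMRT2 (MC2580).
SMARCA2, DMSO (chr9:2025112-2025311): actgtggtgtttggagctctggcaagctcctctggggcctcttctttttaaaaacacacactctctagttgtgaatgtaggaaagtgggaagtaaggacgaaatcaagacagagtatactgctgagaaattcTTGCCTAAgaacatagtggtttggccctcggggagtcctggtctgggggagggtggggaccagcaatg
DOCK8, DMSO (chr9:222265-222464): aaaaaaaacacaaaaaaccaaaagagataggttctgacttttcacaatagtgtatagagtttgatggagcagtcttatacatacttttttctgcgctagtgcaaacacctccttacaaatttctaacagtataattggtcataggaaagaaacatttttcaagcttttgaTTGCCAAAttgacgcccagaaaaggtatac
44366 bp from JAK2, DMSO (chr9:4939166-4939365): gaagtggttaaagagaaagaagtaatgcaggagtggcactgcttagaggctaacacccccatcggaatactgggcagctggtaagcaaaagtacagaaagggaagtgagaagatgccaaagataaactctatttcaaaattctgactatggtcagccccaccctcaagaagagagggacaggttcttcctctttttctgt
87020 bp from GLIS3, MC2580 (chr9:3736341-3736540): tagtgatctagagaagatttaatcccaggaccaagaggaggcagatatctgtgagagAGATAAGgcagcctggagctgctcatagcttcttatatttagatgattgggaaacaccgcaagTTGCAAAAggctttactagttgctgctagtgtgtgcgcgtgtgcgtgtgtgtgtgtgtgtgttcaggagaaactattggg
AK3, DMSO alone (chr9:4740221-4740420): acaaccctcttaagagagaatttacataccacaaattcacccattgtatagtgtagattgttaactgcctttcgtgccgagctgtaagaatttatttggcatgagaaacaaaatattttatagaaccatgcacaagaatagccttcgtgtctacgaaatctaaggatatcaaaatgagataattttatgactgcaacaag
PDCD1LG2, MC2580 alone (chr9:5535540-5535739): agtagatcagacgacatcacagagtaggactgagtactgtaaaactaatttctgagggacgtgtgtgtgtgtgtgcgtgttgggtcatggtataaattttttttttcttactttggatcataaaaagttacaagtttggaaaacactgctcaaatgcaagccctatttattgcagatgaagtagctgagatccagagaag
226064 bp from DMRT2, MC2580 alone (chr9:1284667-1284866): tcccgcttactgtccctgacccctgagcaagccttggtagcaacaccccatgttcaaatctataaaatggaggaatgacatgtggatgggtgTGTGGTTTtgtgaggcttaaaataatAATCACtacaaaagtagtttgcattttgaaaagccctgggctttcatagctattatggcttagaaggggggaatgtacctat

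The 2 MC2580 centers beyond GLIS3 and DMRT2 carried 2 words each, GATA with CEBP and RUNX with GFI1. The SMARCA2 and DOCK8 centers carried the CEBP word alone, and the PDCD1LG2 upstream sequence carried the GFI1 word. JAK2 upstream and CD274 upstream held none of the 6 words in these windows. The printed centers before JAK2, at AK3 and inside PDCD1LG2 held none either. Not printed were the centers of the peaks ranked 3 and 5 by score in DMSO, and 1, 2, 4 and 5 after MC2580. Of these, only that of MC2580 rank 5 carried a word, that of AP-1. The printed windows are thus not typical of the highest peaks.

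V5-GSE1 peaks were spread over nearly the whole segment. They covered 1406 kb in DMSO and 1019 kb after MC2580, a ratio of 0.725. The number of peaks was 0.805 times as high after MC2580 as in DMSO. The same ratio was 0.759 on the rest of chromosome 9 and 0.607 on the rest of the genome. In the adjoining stretch from 9 to 18 Mb, the lists held 515 and 459 peaks (ratio 0.891), and from 18 to 27 Mb they held 427 and 327 (0.766). The ratio was thus higher in the segment than over the rest of the genome, and higher still in the stretch that adjoins it. The ratio of the segment is made of the counts that chose it, so it is a description and was not tested.

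Along the segment the first 1 Mb bin, with DOCK8, KANK1 and the DMRT genes, was the richest, with 214 peaks in DMSO and 154 after MC2580. Peaks covered 26.8% and 16.7% of it. The seventh bin, with IL33, UHRF2, GLDC and the start of KDM4C, followed with 175 and 133 peaks. The sixth, with CD274, PDCD1LG2 and most of JAK2, had 154 and 116. The second to the fifth bin, and the eighth, held between 107 and 145 peaks in DMSO and between 93 and 129 after MC2580. The ninth bin lies within PTPRD for most of its length and held 57 and 37. MC2580 peaks were fewer in each of the 9 bins, from a ratio of 0.649 in the ninth bin to near equality in the second, with 120 and 114 peaks.

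**Figure D1:**
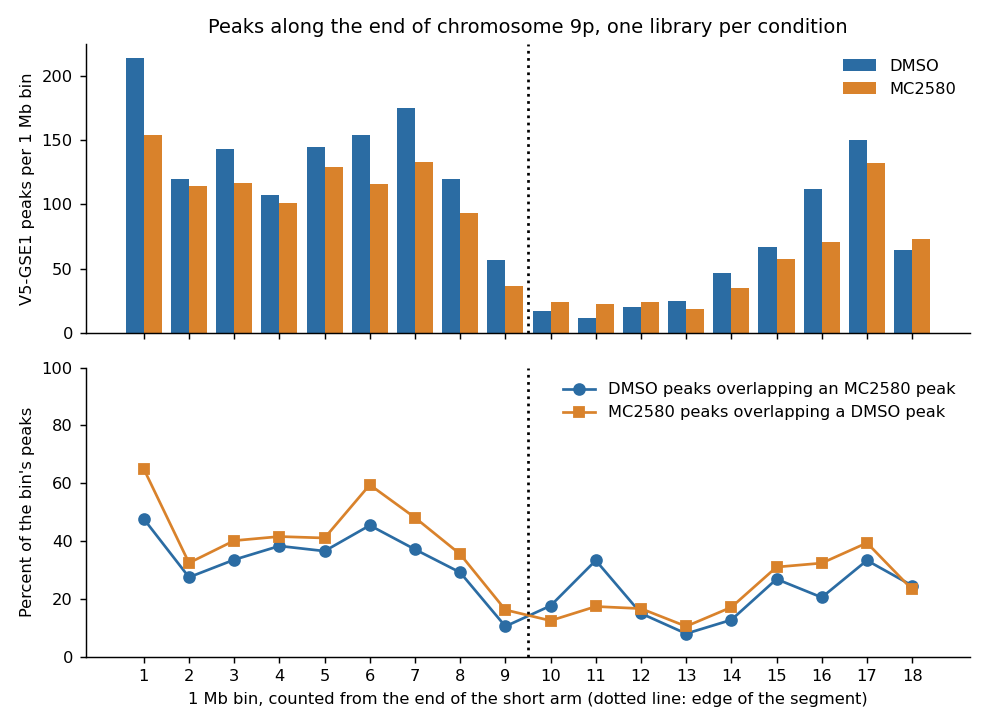
Upper panel, number of V5-GSE1 peaks (vertical axis) in each 1 Mb bin from the end of the short arm (horizontal axis), for the DMSO and the MC2580 library; the dotted line is the 9 Mb edge. Lower panel, percent of each bin's peaks that overlap a peak of the other list: the first bin reached 47.7% and 64.9%, and the ninth 10.5% and 16.2%.

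Density declined before the edge rather than at it. Bins 10 to 13 held 17, 12, 20 and 25 DMSO peaks and 24, 23, 24 and 19 MC2580 peaks, so that MC2580 peaks were the more numerous in 3 of these 4 sparse bins. Numbers rose again to 150 and 132 in bin 17, around CCDC171 and BNC2. At the edge itself, the last DMSO peak inside started at 8961109 (score 71.8) and the first outside at 9010187 (55.99). For MC2580 they started at 8979653 (53.53) and 9015081 (59.6).

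The outer end of the segment was nearly empty. The first DMSO peak started at 208703 and the first MC2580 peak at 103856, which was followed by a gap of 103825 bp without peaks. From there on, the median gap between neighboring peaks was 3281.5 bp in DMSO (2998 to 3653) and 4756 bp after MC2580 (4146 to 5354). Of 90 windows of 100 kb, 2 held no DMSO peak and 1 held no MC2580 peak. The median window held 13 and 11 peaks. The DMSO maximum of 31 was reached from 700001 to 800000, at the end of KANK1, and the MC2580 maximum of 23 from 200001 to 300000, in DOCK8. The number of peaks per window in the lists had a Spearman rho of 0.749 over the 90 windows, which share the EV control and a common sequence. The longest gap in DMSO, 75315 bp, lay between 3063294 and 3138608, and the longest after MC2580, 145635 bp, lay in PTPRD between 8443676 and 8589310.

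Peak scores were modest. The score is the caller's p-value on a scale of minus 10 times log10, with a calling threshold of 50, and it rises with depth. Its median was 83.76 in DMSO (81.12 to 86.09) and 75.3 after MC2580 (72.62 to 77.74). On the rest of the genome the medians were 91.89 (90.9 to 92.99) and 78.36 (77.47 to 79.31). Scores of 100 or more were found for 409 DMSO peaks (33.1%) and 258 MC2580 peaks (25.96%), against 44.98% and 34.4% outside the segment. No peak of the segment had the tied score of 3100 that 116 DMSO and 86 MC2580 peaks share elsewhere. Its highest scores were 1084.77 and 350.33. The median width was 1009 bp in DMSO (989 to 1029) and 928.5 bp after MC2580 (907 to 947). The widest peaks measured 5030 bp, in KANK1 (chr9:650218-655247, DMSO score 485.36), and 3080 bp, in PDCD1LG2.

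In DMSO the highest peak lay inside SMARCA2, which encodes an ATPase of the SWI/SNF chromatin remodelers (chr9:2024364-2026059, score 1084.77). It was 2419 bp from an internal start site of the gene, and the MC2580 peak over the same place was the highest of that list in the segment as well (350.33). Next came an intron of DOCK8, an exchange factor for the GTPase CDC42 in leukocytes (chr9:221575-223154), with 943.41 in DMSO and 216.09 after MC2580. An intron of DMRT1, a transcription factor of the male germ line (chr9:899070-900646), had 717.35 and 260.26. The next DMSO peaks were distal. One lay 44366 bp before JAK2 (chr9:4938508-4940024, 707.44 and 212.52), and another 39085 bp beyond KDM4C (chr9:7214733-7217582, 699.38 and 290.4). All 5 sites, picked by their DMSO score, had a peak in both lists, with the lower score after MC2580.

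The MC2580 list ranked other places high. A peak near an internal start site of DOCK8 (chr9:436592-439476) scored 349.62 after MC2580 and overlapped a DMSO peak of 110.1. A distal peak 36915 bp from TPD52L3 (chr9:6368806-6371819) scored 304.21 and overlapped a DMSO peak of 162.86. A further distal site (chr9:3735774-3737107), 87020 bp beyond GLIS3, scored 314.63 against 562.68 in DMSO. Of the 5 highest MC2580 peaks, 2 therefore scored higher than the DMSO peak they overlapped.

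Overlap between the lists was counted from 1 bp on. An MC2580 peak was met by 453 of the 1235 DMSO peaks, which is 36.7% (34.0 to 39.4), beside 33.6% in the whole DMSO list. Conversely, a DMSO peak was met by 451 of the 994 MC2580 peaks, which is 45.4% (42.3 to 48.5), beside 58% in the whole MC2580 list. The share for DMSO peaks was thus close to that of the whole list, whereas the share for MC2580 peaks was lower than that of their list. The remaining 782 DMSO and 543 MC2580 peaks were found in 1 list only.

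Overlapping peaks had higher scores, with a median of 97.5 against 77.915 in DMSO and 86.46 against 68.09 after MC2580. Overlap was therefore compared within score classes. DMSO peaks below 75 overlapped in 25.4% of cases in the segment (21.7 to 29.5) and in 12.1% outside it (11.3 to 12.8). From 75 to 100 the shares were 33.4% and 21.8%, from 100 to 150 they were 42.7% and 34.8%, and from 150 to 300 they were 61.8% and 55.5%. From 300 on, 30 of 31 DMSO peaks overlapped (96.8%), beside 86.7% outside. The share was the higher in the segment in each class, with overlapping intervals in both classes from 150 on. The segment was selected on the number of peaks in both lists, and the overlap that arises by position alone rises with that number, so these shares are a description and support nothing further.

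MC2580 peaks went the other way. Below 75 the shares were 34.3% in the segment (30.2 to 38.6) and 36.0% outside it. From 75 to 100 they were 48.1% (41.9 to 54.4) and 60.5%, and from 100 to 150 they were 60.1% (53.2 to 66.7) and 80.1%. From 150 to 300 the segment reached 75% (62.3 to 84.5) and the rest of the genome 94.1% (92.8 to 95.2). Overlap in that class was found for 42 of 56 peaks, and from 300 on for 4 of 4. From 75 to 300, the share of MC2580 peaks with a DMSO partner was the lower in the segment, which is a description for the same reason. Neighboring peaks of a list are not independent, so these intervals are too narrow as statements about the segment.

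**Figure D2:**
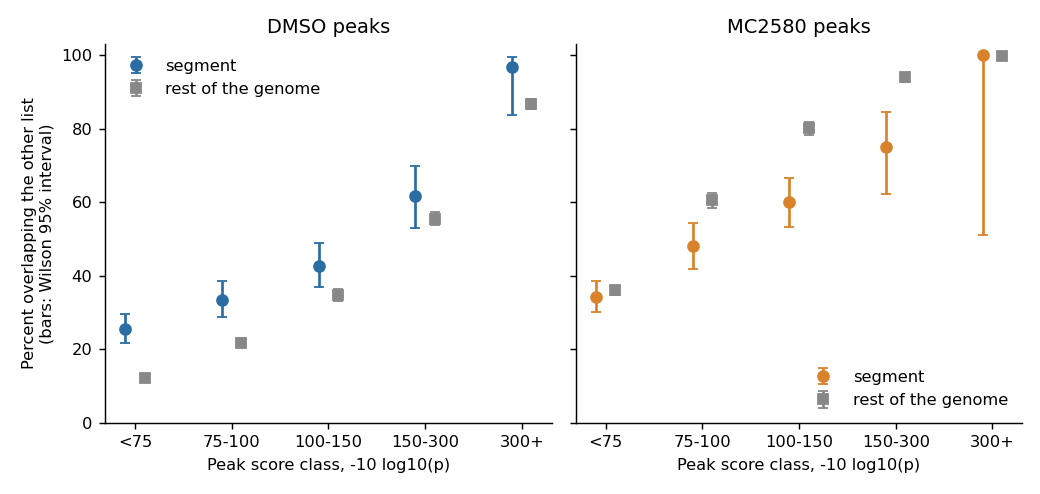
Percent of peaks overlapping the other list (vertical axis) by score class (horizontal axis), for the DMSO list (left) and the MC2580 list (right), in the segment and in the rest of the genome; bars are Wilson 95% intervals. From 150 to 300 the segment reached 61.8% in DMSO and 75% after MC2580, against 55.5% and 94.1% elsewhere.

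Where 1 peak of each list overlapped 1 peak of the other and no more, the scores were set side by side. There were 357 such pairs. The median ratio of the MC2580 to the DMSO score was 0.852 (0.792 to 0.923), and single ratios ran from 0.138 to 2.92. The score was lower after MC2580 in 224 pairs, or 62.7% (57.6 to 67.6), beside 76.7% of all pairs of both lists. On the rest of the genome the median ratio was 0.623 (0.608 to 0.638).

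This gap shrank once pairs were sorted by their DMSO score. Below 75 the median ratio was 1.26 in the segment and 1.15 outside it, from 75 to 100 it was 0.931 and 0.919, and from 100 to 150 it was 0.707 and 0.686. From 150 to 300 it was 0.478 (0.433 to 0.522) and 0.459 (0.443 to 0.475), and from 300 on it was 0.302 (0.214 to 0.417, 16 pairs) and 0.327 (0.313 to 0.343). In each class the interval of the segment held the median of the rest, in the lowest class only at its edge (1.14 to 1.37). Both scores of a pair had to pass 50, so pairs of low DMSO score cannot have a ratio far below 1. All 16 pairs with a DMSO score of at least 300, and 56 of the 58 from 150 to 300, had the lower score after MC2580. On the rest of the genome the shares were 93.9% and 92.0%, near those of the segment. The classes rest on the DMSO score, which is also the divisor of the ratio, so these counts are a description.

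**Figure D3:**
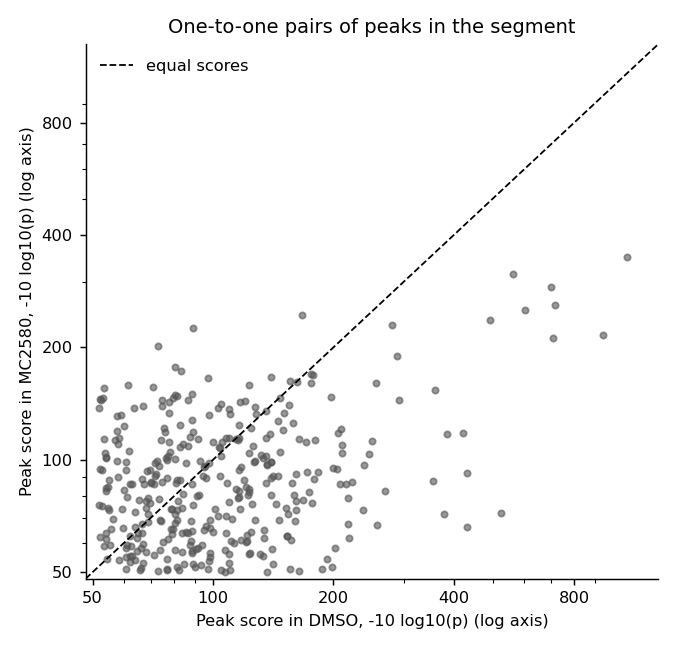
Score of the MC2580 peak (vertical axis) against that of the DMSO peak (horizontal axis), both minus 10 times log10 p on log axes, for the 357 pairs of the segment; each point is a pair and the dashed line marks equal scores. Points above a DMSO score of 300 all lie below the line, while 27 of the 104 pairs with a DMSO score below 75 do. On the rest of the genome, 93.9% of pairs from 300 on and 33.1% of pairs below 75 had the lower score after MC2580.

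Peaks were placed mainly outside promoters. Within 3 kb of an annotated start site (GENCODE version 44) lay 278 DMSO peaks, or 22.5% (20.3 to 24.9), and 210 MC2580 peaks, or 21.1% (18.7 to 23.8). The promoter share was 36.0% and 31.8% on the rest of the genome, and 26.8% and 24.4% on the rest of chromosome 9. Introns held 40.1% and 40.0% of the peaks, distal intergenic sequence 32.1% and 33.5%, and exons or UTRs 5.26% and 5.33%. Protein-coding genes cover 50.9% of the segment and contained 53.0% of the DMSO peaks (50.2 to 55.8) and 51.6% of the MC2580 peaks (48.5 to 54.7). Peak density was hence 14.3 per 100 kb within genes and 13.1 between them in DMSO, and 11.2 and 10.9 after MC2580. Directly over a start site lay 87 DMSO and 47 MC2580 peaks.

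Of the 40 protein-coding genes, 35 had a DMSO peak within 3 kb of any of their start sites, beside 16.2% of all protein-coding genes, and 28 had an MC2580 peak there, beside 7.88%. All 28 also had a DMSO peak. The other 7 genes, SPATA6L, PLPP6, CDC37L1, AK3, JAK2, PDCD1LG2 and PTPRD, had promoter peaks in DMSO and not after MC2580. Only peaks of the segment were counted. PTPRD runs on to 10613002, so peaks beyond 9 Mb at its start sites were left out, and its state holds for the segment alone. The shares over all protein-coding genes have no such cut. In some of them an MC2580 peak lay just past the 3 kb limit, 3095 bp from a start site of PTPRD, 3163 bp for AK3 and 3450 bp for CDC37L1. The DMSO peak of PTPRD lay 2529 bp from a start site and scored 59.03. With the density of peaks being what chose the segment, these counts describe it and support nothing further. The number of annotated start sites differs widely (66 in SMARCA2, 35 in KANK1 and 1 in PDCD1LG2) and with it the chance of a promoter peak. When only the outermost 5′ end of each gene was used, 21 genes had a peak in both lists, 11 in DMSO only, 2 after MC2580 only (IL33 and GLDC) and 6 in neither. PTPRD is among these 6, and its 5′ end lies outside the segment, where no peak was counted. Of the 51 long non-coding RNA genes, 35 had a DMSO promoter peak, beside 9.36% of all such genes, and 35 had an MC2580 promoter peak, beside 4.53%, and the same limit applies to these counts.

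Within gene bodies, 26 genes had fewer MC2580 than DMSO peaks, 4 had equal numbers and 5 had more. Of the 33 genes with peaks in both lists, 28 had a lower highest score after MC2580. The same counts over all protein-coding genes are not given here. The whole lists hold 21401 DMSO and 13233 MC2580 peaks, and 76.7% of all pairs had the lower score after MC2580. Both gene counts are therefore a description and set these genes apart from no others. Some genes overlap each other, so that peaks shared by JAK2 and INSL6, KCNV2 and PUM3, SLC1A1 and SPATA6L, SPATA6L and PLPP6, RIC1 and ERMP1, or KIAA2026 and MLANA may count for both.

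**Figure D4:**
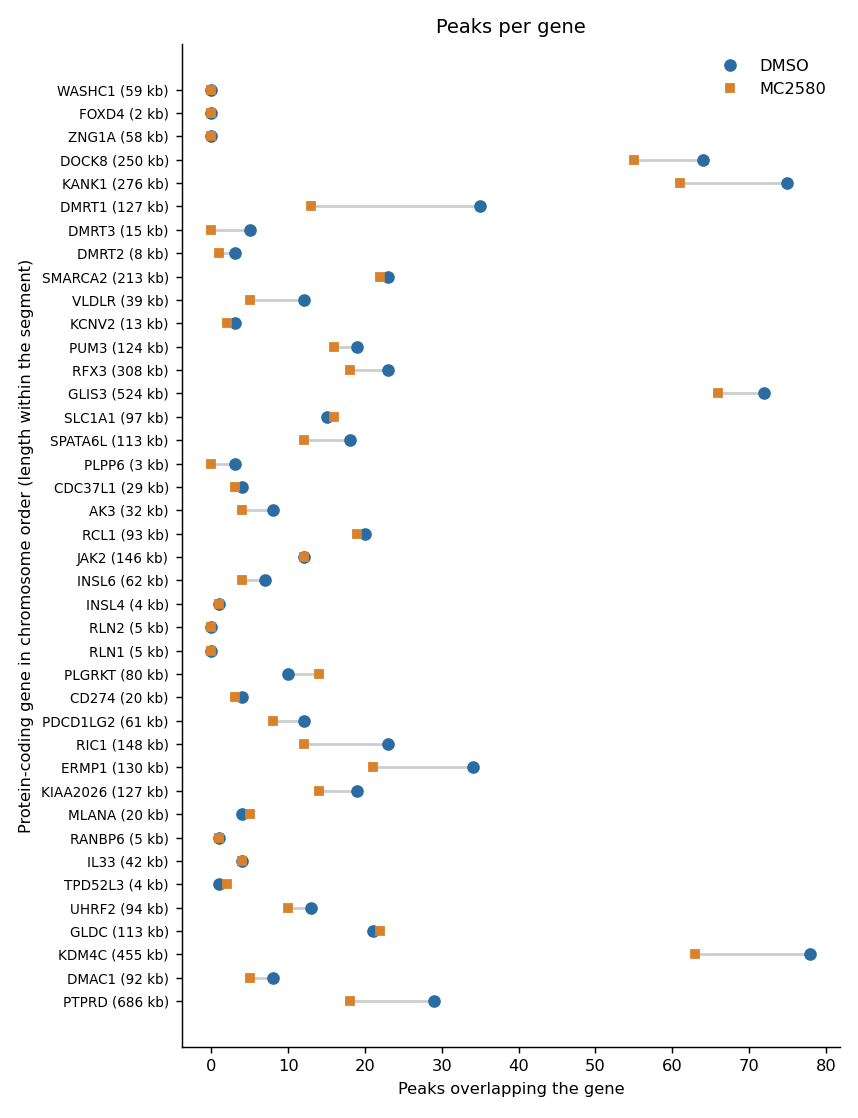
Number of V5-GSE1 peaks overlapping each of the 40 protein-coding genes (horizontal axis), in chromosome order from top to bottom (vertical axis, with the gene's length in the segment), in DMSO (circles) and after MC2580 (squares). DMRT1 had 35 and 13 peaks, while JAK2 had 12 in each list and PLGRKT 10 and 14.

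JAK2 (chr9:4984390-5129948, plus strand) contained 12 peaks in each list, of which 6 in each overlapped the other list. In the whole lists 33.6% of DMSO and 58% of MC2580 peaks did. The DMSO peak over the start of the gene (chr9:4984105-4985053) scored 71.45, and a second one 1196 bp upstream (chr9:4982276-4983194) scored 75.04. Neither had an MC2580 counterpart, and 4445 bp separated JAK2 start sites from the closest MC2580 peak. Most peaks of such scores had none, since 25.4% of the segment's DMSO peaks below 75 overlapped, and 33.4% of those from 75 to 100. The highest DMSO peak of the gene lay in an intron 35.9 kb from the start (chr9:5019502-5021128), with 205.52 in DMSO and 118.11 after MC2580. The highest MC2580 peak lay 117 kb from the start (chr9:5100573-5102056), with 160.45, and had a DMSO score of 175.68. An intronic site 79.8 kb from the start scored 115.71 and 112.99. JAK2 thus had equal numbers of peaks in both lists, while no peak was called at its start after MC2580.

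CD274 (chr9:5450503-5470566, plus strand) had 4 peaks in DMSO and 3 after MC2580. Its highest DMSO peak (chr9:5449369-5450581, score 101.82) reached over the start site and held the PU.1 word printed above, and a second DMSO peak 2833 bp upstream scored 86.8. After MC2580 no peak lay within 3 kb of the outermost 5′ end, the nearest being 4752 bp away. Of the segment's DMSO peaks from 100 to 150, 42.7% overlapped an MC2580 peak. The MC2580 peaks that count as promoter peaks of CD274 lay at internal start sites and scored 55.89 (chr9:5455255-5456032) and 54.46 (chr9:5462390-5463222), near the calling threshold. The only site of the gene found in both lists was near its 3′ end, where the DMSO score was 53.97 and the MC2580 score 82.5.

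PDCD1LG2 (chr9:5510531-5571282, plus strand) had 12 and 8 peaks. A DMSO peak covered its start site (chr9:5509923-5511030, score 101.52), and another 698 bp upstream scored 85.85. The nearest MC2580 peak was 6280 bp from the start, and 42.7% of the segment's DMSO peaks from 100 to 150 had an MC2580 partner. Inside the gene, the highest DMSO peak lay 48.1 kb from the start (chr9:5557892-5559343, 219.43) and overlapped an MC2580 peak of 61.86. The highest MC2580 peak of the gene, 25.1 kb from the start (chr9:5534100-5537179), scored 275.36, was the widest of the MC2580 list in the segment at 3080 bp, and overlapped no DMSO peak, the nearest of which lay 1354 bp away. In 6 DMSO and 6 MC2580 peaks of the gene the lists overlapped, beside 33.6% and 58% of the whole lists.

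**Figure D5:**
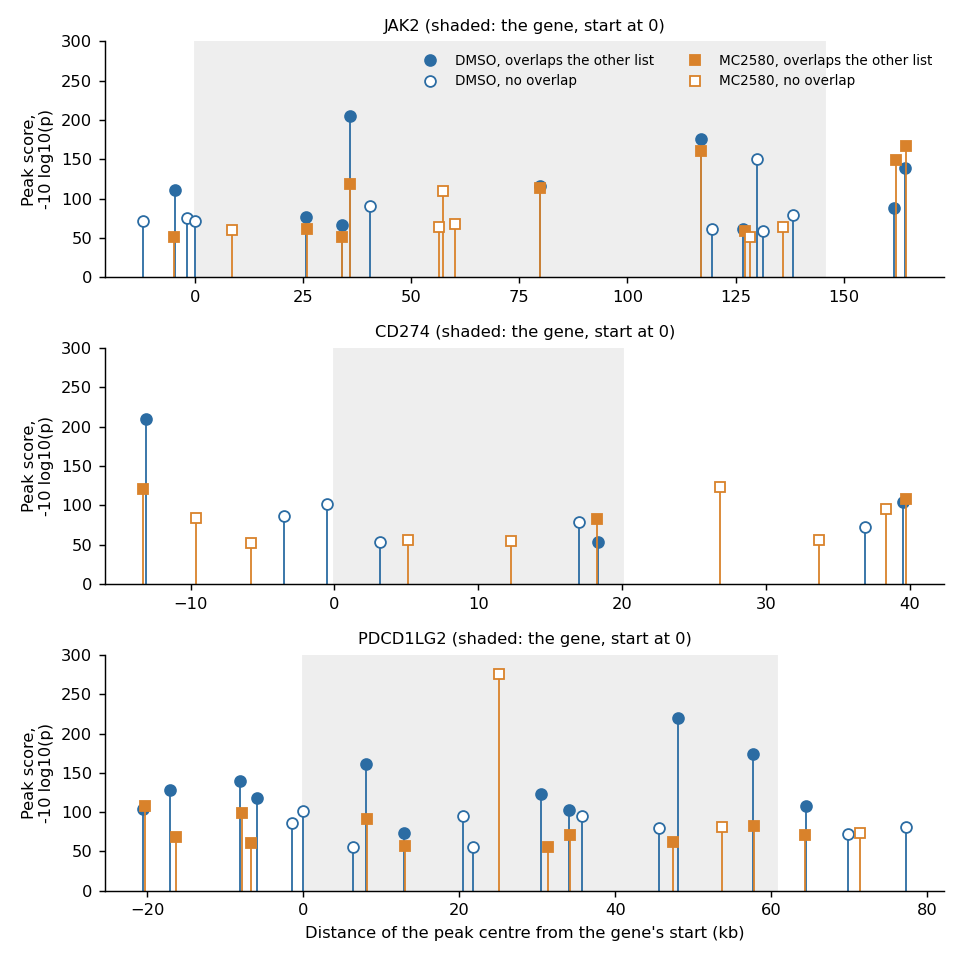
Peak score (vertical axis) against the distance of the peak center from the start of JAK2, CD274 and PDCD1LG2 (horizontal axis, kb), from 20 kb before to 20 kb beyond each gene; filled symbols overlap the other list and open symbols do not. At the start of each gene there is an open DMSO symbol and no MC2580 symbol, and the highest point is the open MC2580 peak of 275.36 inside PDCD1LG2. In the segment, 25.4% of DMSO peaks below 75 and 42.7% of those from 100 to 150 overlapped an MC2580 peak.

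Among the other signaling genes, IL33, an alarmin of the interleukin-1 family, had 4 peaks in each list, with highest scores of 157.47 and 135.02. INSL6, INSL4, RLN2 and RLN1 form the relaxin cluster of peptide hormones beside JAK2. INSL6 had 7 and 4 peaks, with scores of up to 158.37 and 166.82, and INSL4 had 1 peak in each list (81.66 and 77.74). RLN2 and RLN1 had no peak in the gene body in either list. PLGRKT, a plasminogen receptor next to CD274, was 1 of the 5 genes with more peaks after MC2580, 10 and 14. Its highest scores nonetheless were 291.84 in DMSO and 144.98 after MC2580.

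The pathway outside the segment was examined through 23 genes of JAK and STAT signaling and of the PD-1 and CD28 pathways. A promoter peak was found for 7 of them in DMSO and for 4 after MC2580, all 4 of which were among the 7, beside 16.2% and 7.88% of all protein-coding genes. TYK2, a kinase related to JAK2, had the tied score of 3100 in both lists, at which scores do not rank peaks. STAT3 had 350.36 and 147.64, STAT6 had 663.59 and 54.56, and IRF1, an interferon-induced transcription factor that activates CD274, had 551.25 and 101.24. IFNGR2 (127.97), PTPN6 (130.32) and CD86 (204.05) had a promoter peak in DMSO only. JAK1, JAK3, STAT2, STAT5A, STAT5B, SOCS1, SOCS3 and the PD-1 gene PDCD1 were among the 16 with none in either list.

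Of the 3 genes for chromatin proteins, KDM4C, a lysine demethylase of histone H3, had 78 peaks in DMSO and 63 after MC2580 over 455 kb, or 17.2 and 13.9 per 100 kb. Its highest scores were 430.95 and 190.42. SMARCA2 had 23 and 22 peaks (10.8 and 10.3 per 100 kb), but at the outermost 5′ end of the gene the highest DMSO score was 59.26, with 8010 bp to the closest MC2580 peak. Its top peak lay away from that end, 2419 bp from an internal start site that it did not cover. UHRF2, a ubiquitin ligase that binds hemimethylated DNA, had 13 and 10 peaks (13.8 and 10.6 per 100 kb), and its highest DMSO peak (312.13) lay within 3 kb of its 5′ end, where the best MC2580 score was 104.24.

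Of the transcription factor genes, the DMRT cluster differed most between the lists. DMRT1 had 35 peaks in DMSO and 13 after MC2580, DMRT3 had 5 and 0, and DMRT2 had 3 and 1. The peaks were scattered over DMRT1 at 27.5 and 10.2 per 100 kb. Of its 35 DMSO peaks, 11 had an MC2580 partner, beside 33.6% of the whole DMSO list. Conversely, 10 of its 13 MC2580 peaks had a DMSO partner, beside 58% of the whole MC2580 list. The overlap counts thus do not set DMSO peaks of DMRT1 apart. In contrast, GLIS3, a zinc finger factor of endocrine tissues, had 72 and 66 peaks, and RFX3, a factor of ciliated cells, had 23 and 18. FOXD4, within the empty end of the chromosome, had none, nor had WASHC1 and ZNG1A beside it.

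DOCK8 and KANK1, which regulate actin, were among the densest long genes. DOCK8 had 64 and 55 peaks, of which 36 and 33 overlapped, and KANK1 had 75 and 61, of which 36 and 39 overlapped. In the whole lists 33.6% of DMSO and 58% of MC2580 peaks overlapped. Over these genes the median score was 86.365 and 89.2 in DOCK8, and 95.06 and 77.37 in KANK1, for DMSO and MC2580. DOCK8 is expressed in blood cells, and its best 5′ end peak scored 227.56 in DMSO and 123.87 after MC2580. Just past KANK1 lay the highest DMSO peak without an MC2580 partner (chr9:747614-750833, 384.76), although an MC2580 peak lay 21 bp from it, so that the overlap rule alone separates them.

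Among genes of metabolism and transport, AK3, a mitochondrial adenylate kinase, had the highest DMSO score of the 7 genes with a promoter peak in DMSO only. A DMSO peak of 3309 bp (chr9:4738667-4741975, 296.75) covered a start site, and the nearest MC2580 peak was 3230 bp from that peak. An MC2580 peak lay 3163 bp from a start site of AK3, just past the 3 kb limit. CDC37L1, a relative of the HSP90 co-chaperone CDC37, lies next to AK3 and had a DMSO score of up to 161.24 within 3 kb of its start, with the nearest MC2580 peak 3450 bp from a start site. PLPP6, a lipid phosphatase, had 3 DMSO peaks (62.26 to 81.97) and 0 MC2580 peaks, and SPATA6L, which spans PLPP6 and so counts the same 3 peaks, had 18 and 12. The neighboring RCL1, a protein of ribosomal RNA processing, had 20 and 19 peaks, and it carried an MC2580 peak of 237.98 with no DMSO overlap (chr9:4843664-4846129).

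VLDLR, a receptor for lipoproteins and reelin, had 12 peaks in DMSO and 5 after MC2580, with highest scores of 603.42 and 251.74. All 5 overlapped DMSO peaks, beside 58% of the whole MC2580 list. KCNV2, a potassium channel subunit, had 3 and 2, and PUM3 had 19 and 16. SLC1A1, a glutamate transporter, had 15 and 16 peaks, and the best scores within 3 kb of its 5′ end were 350.13 and 113.46. GLDC, the glycine decarboxylase of mitochondria, had 21 and 22 peaks with highest scores of 250.32 and 138.57. Equal or higher numbers after MC2580 thus went with lower highest scores in SLC1A1 and GLDC.

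In the remaining genes, RIC1, a regulator of Golgi trafficking, had 23 and 12 peaks, and ERMP1, a peptidase of the endoplasmic reticulum, had 34 and 21. KIAA2026 had 19 and 14. MLANA, a melanosome protein known as a melanoma antigen, had 4 and 5, and TPD52L3 had 1 and 2. RANBP6, which is related to nuclear import receptors, had a single body peak in each list, with 431.31 in DMSO and 92.35 after MC2580. DMAC1 had 8 and 5. PTPRD, a receptor tyrosine phosphatase, was sparse within the segment, with 29 and 18 peaks or 4.23 and 2.62 per 100 kb. In each list 2 of these overlapped, beside 33.6% and 58% of the whole lists. Their median scores were low, 64.61 and 64.45, and peaks of low score overlapped less often in both lists.

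Sequence at the peak centers was compared with 200 bp windows 2000 bp to each side, with all 44950 consecutive windows of the segment, and with centers of the same list elsewhere. The PU.1 word occurred in 1.38% of the DMSO centers (0.861 to 2.19), in 0.729% of the flanks, in 1.07% of all windows of the segment and in 3.05% of DMSO centers elsewhere (2.82 to 3.30). The RUNX word, for which the values were 1.86% (1.24 to 2.78), 1.90%, 2.04% and 4.83% (4.54 to 5.13), was no more frequent at DMSO centers than over the segment as a whole. The AP-1 word reached 4.45% (3.44 to 5.75), 3.24%, 3.03% and 6.48%. After MC2580 the shares at the centers were 1.81% for PU.1, 2.11% for RUNX and 4.63% for AP-1, against 1.96%, 3.25% and 5.09% at MC2580 centers elsewhere.

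The GATA, GFI1 and CEBP words stayed near their level over all windows of the segment. At DMSO centers they occurred in 2.67%, 10.3% and 11.1%, and over all windows in 3.00%, 11.4% and 11.2%. At MC2580 centers they occurred in 2.82%, 10.6% and 11.5%. The CEBP word reached 14.2% at DMSO centers elsewhere (13.8 to 14.7), above the interval of the segment (9.46 to 13.0). Base composition differed between the sets of windows. The median GC content was 45.5% at DMSO centers and 45% at MC2580 centers, 40% in the flanks and 39% over all windows, while centers elsewhere had 49.5% and 48.5%. Of the flank windows, 24.5% and 18.8% touched a peak of the same list. For the widest DMSO peaks this can be the flanked peak itself. The part of GC content and of neighboring peaks in the word shares was not tested.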

How the data were processed

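V5 ChIP-seq was carried out in 6 NB4 libraries, 1 per group. The authors mapped reads to hg38 with Bowtie (version stated as 4.8.2) and kept unique matches with at most 2 mismatches. They then used MACS with a p-value cut-off of 1e-05, with the respective input and the EV ChIP as background. How both backgrounds were combined was not stated. The deposited files were 2 peak lists, matched to conditions by their names, each giving a position and the peak caller's score (minus 10 times log10 of the p-value, threshold 50). Scores grow with depth, which was unknown, and neither scores nor peak numbers were corrected for it.

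Peaks starting from 0 to below 9 Mb on chromosome 9 were taken, and coordinates are given from 1. Classes were promoter (within 3 kb of any start site in GENCODE version 44), exon or UTR, intron and distal intergenic, in this order. Overlap meant at least 1 bp. Shares have Wilson intervals and medians order-statistic intervals, both at 95%. With 1 library per condition no test was run. The segment, the gene and word lists and the alternatives were chosen with earlier results of these data known. Named were all 40 protein-coding genes by role, 23 pathway genes elsewhere (1 more is not reported here), the 5 highest peaks per list, the 3 highest found in 1 list only, the widest peaks, and the peaks at JAK2, CD274 and PDCD1LG2. Alternatives were a score of at least 100 or of at least the lowest DMSO score, exclusion of widths above the 99th percentile, merging within 1 kb, a segment end of 8 Mb, other overlap and promoter rules, and 400 bp word windows. Interval functions were tested on simulated data. The tools were scipy 1.17.1, pandas 2.3.3, numpy 2.4.6 and matplotlib 3.10.9 under Python 3.11.15.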

Additional observations from a re-analysis of the deposited data

How the results depend on the processing

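No paired analysis was possible because each condition had 1 library, and no replicate could be left out. Of 64 alternative values, 33 stayed within the interval of the value as reported (counts within 1.5 times), 31 moved and 0 reversed. Some of the 33 could not move. The width limit was 7875 bp, while the widest peak of the segment measured 5030 bp. No score in the segment reached 3100, and no DMSO peak can fall below the lowest DMSO score. Counts, shares and median scores also have no direction that could reverse. The number of MC2580 peaks stayed below that of DMSO peaks under every alternative run, with ratios from 0.631 to 0.878. With scores of 100 or more, 409 and 258 peaks remained, with median scores of 134.08 and 123.915, overlaps of 24.7% for DMSO and 38.4% for MC2580 peaks, and promoter shares of 27.9% in both lists. Overlap by at least 50% of the shorter peak gave 30.1% and 38.1%, by 50% of both 21.5% and 26.7%, and within 1 kb 52.9% and 62.0%. The promoter share was 13.0% and 11.5% within 1 kb of a start site, and 15.1% and 12.5% with protein-coding start sites only. Longer windows hold more words by construction, and 11 of 12 word shares moved with 400 bp. Genes with a promoter peak numbered 28 to 32 in DMSO and 21 to 23 after MC2580 under the alternatives, of which the outermost 5′ end was chosen after seeing the data. The causes of the other moves were not tested. Unknown depth limits the comparison of peak numbers and scores between the lists, and local DNA copy number and input signal were not analysed here.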

Other observations

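Words were also counted by peak score, a split chosen after seeing the data. Among the 154 DMSO centers of the segment with a score of at least 150, the RUNX word occurred in 6, or 3.90% (1.80 to 8.24), beside 6.45% (5.82 to 7.13) of the 5412 such centers elsewhere. PU.1 occurred in 1.95% (0.665 to 5.57) beside 3.64%, AP-1 in 4.55% (2.22 to 9.08) beside 7.22%, and CEBP in 9.74% (5.99 to 15.4) beside 15.5%. GFI1 occurred in 5.84% (3.10 to 10.7) beside 11.4%, whereas GATA was the more frequent in the segment, with 5.19% (2.66 to 9.92) beside 3.57%.

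Among the 60 MC2580 centers of the segment at that score, RUNX and CEBP were the more frequent in the segment, with 8.33% (3.61 to 18.1) and 13.3% (6.91 to 24.2), beside 4.48% and 10.05% of the 2299 such centers elsewhere. PU.1 occurred in 1.67% beside 2.00%, AP-1 in 3.33% beside 5.09%, GATA in 1.67% beside 4.44%, and GFI1 in 6 of the 60 centers beside 10.4%. Of these 12 comparisons, the interval of the segment ended below the value elsewhere for CEBP and GFI1 in DMSO and held it in the other 10.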
